A study of Mus musculus with 4 samples.

Results

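Pluripotency in mouse embryonic stem cells (ESCs) is held by a small network of transcription factors. This report describes 10 of them, Pou5f1, Sox2, Nanog, Esrrb, Klf2, Klf4, Zfp42, Tbx3, Tfcp2l1 and Prdm14, in haploid against diploid ESCs. They were chosen by name, and their probes were those whose transcript accession in the scanner files matched one of these symbols in a table of RefSeq genes. All 10 genes had a probe. Tfcp2l1 had 2 probes and the others 1 each, making 10 of 19748 gene symbols and 11 of the 39409 probes measured on all arrays. The study compared 2 samples of parthenogenetic haploid ESCs with 2 of parthenogenetic diploid ESCs, all labelled female. Parthenogenetic cells descend from an egg activated without fertilisation, so both groups carry only maternal chromosomes, in a single set in the haploid cells and in paired sets in the diploid cells. Each group has a line 1 and a line 2, and the design text calls the samples of a group independent experiments. No genetic change, drug, passage number or culture medium is named in the labels, and each line is a single sample, so differences between lines and between cultures cannot be told apart. Total RNA was labelled with Cy3 and hybridised to 1-colour Agilent arrays, 1 sample to an array.

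POU5F1 (also called OCT4) and SOX2 bind DNA together on a composite element, and with the homeodomain protein NANOG they form the core of the network. ESRRB, KLF2, KLF4, TBX3 and TFCP2L1 are the factors of the naive state, the state of the early epiblast that ESCs keep in culture. LIF signalling through STAT3 feeds Klf4 and Tfcp2l1, and inhibition of GSK3 frees Esrrb, Klf2 and Tfcp2l1 from repression by TCF7L1. PRDM14 represses DNA methyltransferase and FGF receptor genes, and Zfp42 (also called Rex1) is a widely used marker of undifferentiated cells.

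None of the 10 genes differed between haploid and diploid ESCs beyond what the spread between arrays allowed. The test used, limma, draws each probe's spread toward that of all probes tested, so its intervals and p-values rest on both. The differences ran from -0.37 for Nanog to 0.40 for the second Tfcp2l1 probe, haploid minus diploid on the log2 scale, or from 1.29-fold lower to 1.32-fold higher. Of 11 probes, 0 passed limma's test (adjusted p from 0.485 to 0.988), against 0.161% of the 21784 probes tested. At an unadjusted limma p under 0.05 the count was also 0, against 11.4% of probes tested. The median over the 11 probes was 0.09 and over all probes tested 0.01. All 11 were well above background on all 4 arrays. The 95% intervals of the differences reached from -0.79 at the lowest to 0.90 at the highest, and differences within a probe's interval cannot be told from its estimate with 2 arrays per group. In bulk RNA, fewer cells that express a gene and less of its RNA per cell cannot be told apart. Scaling each array by its own brightness also removes a difference shared by all genes, such as one in total RNA per cell. The differences are therefore relative to the other probes of an array, and a small one does not show equal RNA per cell.

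**Figure D1:**
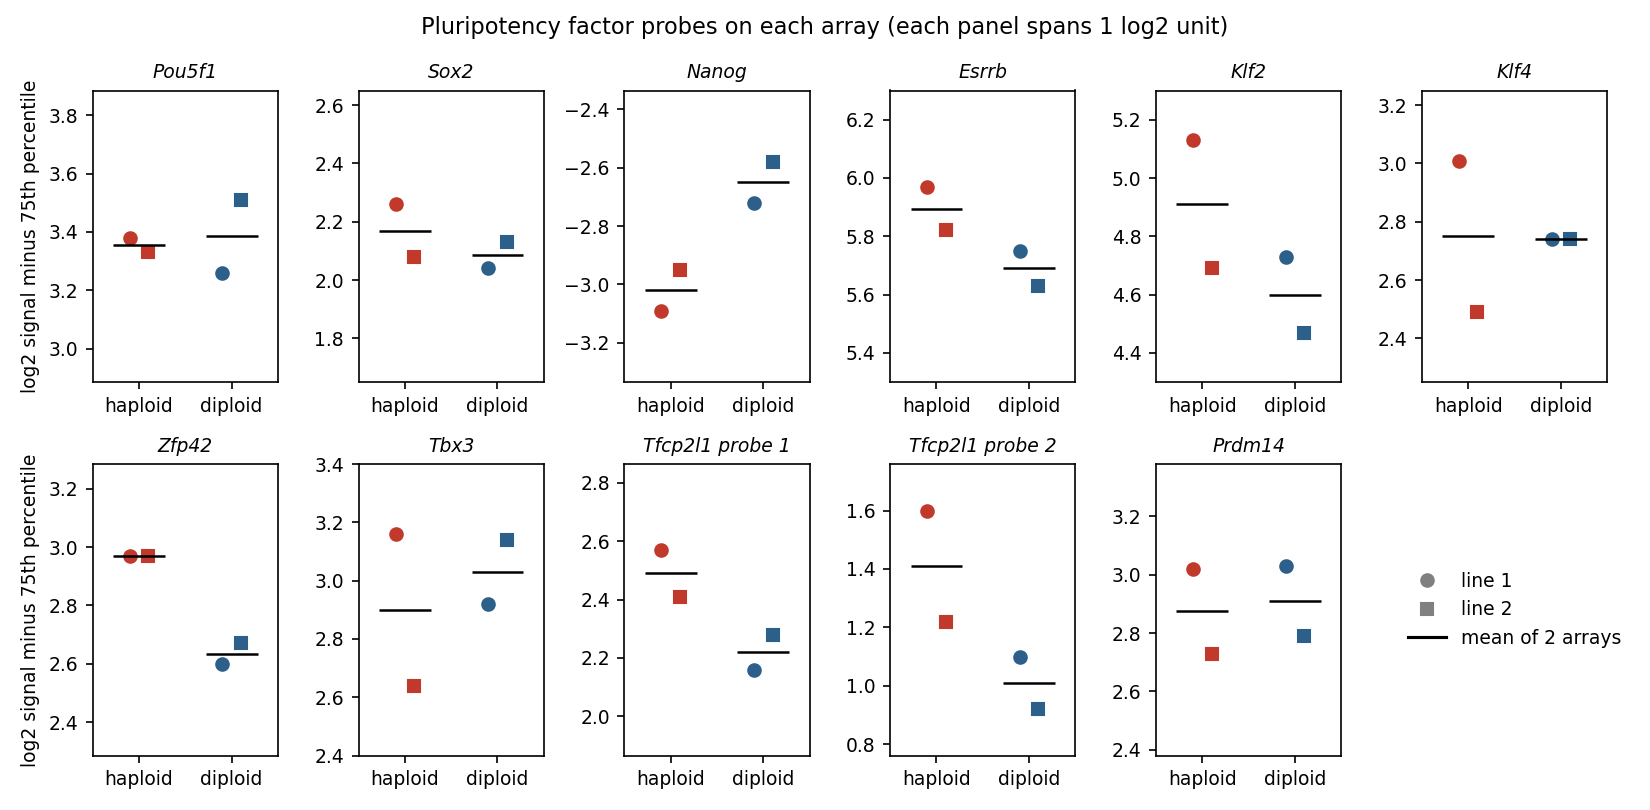
Signal of each pluripotency factor probe on the 4 arrays, as log2 intensity minus the array's 75th percentile. Each panel is 1 probe and spans 1 log2 unit around its own values, circles are line 1, squares are line 2 and bars are the mean of 2 arrays. Nanog lay lower and Zfp42, Esrrb and both Tfcp2l1 probes lay higher on both haploid arrays, while the haploid lines of Klf4 and Tbx3 stood 0.52 apart.

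A level below is log2 of the processed intensity minus the array's 75th percentile of it, so 0 is the brightness under which 75% of the array's spots fall. A probe's brightness depends on its sequence too, so levels of different genes are not compared.

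Pou5f1, the factor without which ESC identity is lost, was at 3.38 and 3.33 in haploid lines 1 and 2 and at 3.26 and 3.51 in diploid lines 1 and 2. The haploid values lay between the diploid ones. The difference was -0.03 ± 0.18 (SE, n = 2 per group, 95% interval -0.46 to 0.41, limma adjusted p = 0.961). Sox2, its partner, was at 2.26 and 2.08 in haploid lines and 2.04 and 2.13 in diploid lines, and the groups overlapped. Its difference was 0.09 ± 0.18 (interval -0.34 to 0.51, limma adjusted p = 0.864). For this core pair the intervals leave room for a change of up to 1.43-fold upward and down to 0.725 of the diploid level.

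Nanog was the member furthest below 0. It was at -3.09 and -2.95 in haploid lines 1 and 2 and at -2.72 and -2.58 in diploid lines 1 and 2. Both haploid values lay below both diploid values, which held for 1 of the 10 genes (brightest probe of each) and for 21.4% of all probes tested. The difference was -0.37 ± 0.18 (interval -0.79 to 0.05, limma adjusted p = 0.485). The Nanog probe was dim: its raw spots stood 2.53, 2.77, 3.55 and 5.49 times over local background on haploid lines 1 and 2 and diploid lines 1 and 2, where the other 10 probes stood at least 24.1 times over it. Background correction therefore weighs most on Nanog, whose difference was -0.18 with normexp (a model of signal plus background) fitted without spots of high local background and -0.83 with normexp on all spots. Only 2 spots, both on diploid line 2, had such high local background (over 10 times the median), and these settings differ by those spots. Among probes of like brightness (the third of 10 classes by mean signal) the median difference was -0.06. Mouse Nanog and Pou5f1 have near-identical pseudogene copies, and whether these probes also take up such transcripts was not tested.

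Zfp42 was at 2.97 in both haploid lines and at 2.60 and 2.67 in diploid lines 1 and 2. Both haploid values lay above both diploid values, as they did for 3 of the 10 genes and for 24.8% of all probes tested. In either direction the groups were apart for 4 of the 10 genes and for 46.2% of all probes tested. The difference was 0.33 ± 0.17, or 1.26-fold (interval -0.07 to 0.74, limma adjusted p = 0.508), where probes of like brightness had a median of 0.08. It ran from 0.30 to 0.37 with 1 array left out, so the spread between lines moved it little.

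The promoters of Nanog and Zfp42, the genes of opposite direction, are shown because each holds binding letters of the core factors. Both are the 250 bases before a gene start in RefSeq (build GRCm38.p6), 5′ to 3′ on the gene's strand. The first lies at chr6:122707239-122707488 on the plus strand and the second at chr8:43307010-43307259 on the minus strand. Capitals mark the OCT4-SOX2 composite element in Nanog and the octamer, the site of POU factors, in Zfp42.
Nanog: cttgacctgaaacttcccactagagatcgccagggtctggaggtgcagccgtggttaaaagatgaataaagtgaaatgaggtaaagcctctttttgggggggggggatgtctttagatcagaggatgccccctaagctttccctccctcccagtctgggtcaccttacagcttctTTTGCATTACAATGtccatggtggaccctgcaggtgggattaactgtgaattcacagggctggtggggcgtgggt
Zfp42: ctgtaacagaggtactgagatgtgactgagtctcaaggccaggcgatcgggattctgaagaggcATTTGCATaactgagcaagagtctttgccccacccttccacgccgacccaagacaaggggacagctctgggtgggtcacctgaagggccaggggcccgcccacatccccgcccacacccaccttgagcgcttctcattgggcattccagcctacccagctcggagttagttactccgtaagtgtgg

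The composite was searched as the SOX letters CATTGT, any base, then the first 7 letters of the octamer ATGCAAAT, on both strands of 32851 RefSeq promoter windows, 250 bases before to 50 after a gene start. It was in 2 of them (0.00609%), which are the windows of the 2 listed starts of Nanog and hold the same site, 75 bases before the first start and 151 before the second. The whole octamer was in 1.74% of windows and, among the 11 windows of 8 members, only in that of Zfp42, starting 186 bases before the gene start. Tbx3 and Prdm14 had no window and were not searched. The SOX letters, which the composite contains, were in 12.6% of windows and in 4 of the 11 member windows. These were both windows of Nanog and a single window each of Esrrb and Pou5f1, which have 2 windows each. The GC box GGGCGG, letters bound by KLF and SP factors, was in 35.7% of windows and in 5 of the 11, those of Sox2, Klf2, Klf4, Zfp42 and Pou5f1. The KLF letters GGGTGTGG were in 3.56% and again only in Zfp42 among the members searched, and the STAT letters TTCNNNGAA were in 8.30% and only in Esrrb among them. The ESRRB letters TCAAGGTCA, the TBX letters AGGTGTGA and the PRDM14 letters GGTCTCTAA were in 0.423%, 1.28% and 0.256% of windows and in 0 of the 11. A match is only a run of letters, and these arrays measured no binding.

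**Figure D2:**
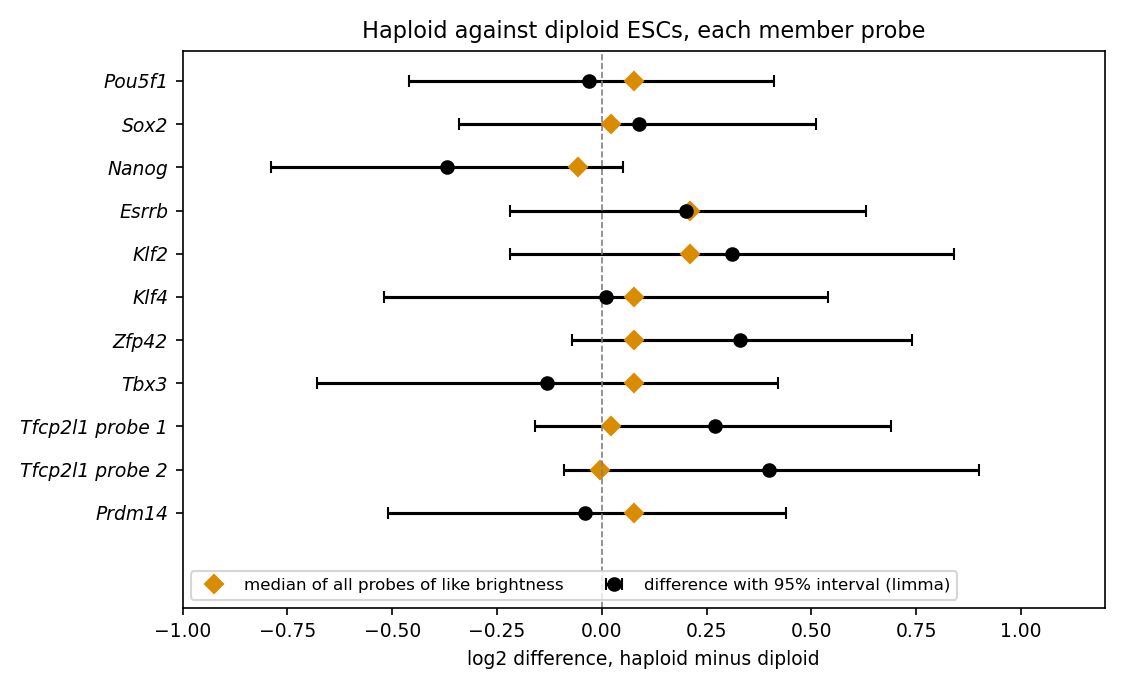
Difference of each probe in log2 units, haploid minus diploid, with limma's 95% interval (black), beside the median difference of all probes in the same of 10 brightness classes (diamonds). Every interval spans 0, and the Esrrb point falls on its diamond.

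Among the naive factors, Tfcp2l1, a CP2-family factor, was higher on both haploid arrays by both of its probes. The brighter probe was at 2.57 and 2.41 in haploid lines and 2.16 and 2.28 in diploid lines, a difference of 0.27 ± 0.18 (interval -0.16 to 0.69, limma adjusted p = 0.585). The other probe was at 1.60 and 1.22 in haploid lines and 1.10 and 0.92 in diploid lines, a difference of 0.40 ± 0.20 (interval -0.09 to 0.90, limma adjusted p = 0.511). The probes shared the direction, and on neither did the groups overlap. They differed in which diploid line was higher.

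Esrrb, an orphan nuclear receptor that can stand in for Nanog in ESCs, was at 5.97 and 5.82 in haploid lines and 5.75 and 5.63 in diploid lines. The groups did not overlap. The difference was 0.20 ± 0.18 (interval -0.22 to 0.63, limma adjusted p = 0.663). This probe belongs to the brightest of 10 classes, whose median difference over all probes was 0.21, so Esrrb differed no more than bright probes did as a whole. The difference was 0.02 with quantile normalization, 0.03 with cyclic loess and 0.03 in the authors' deposited value table.

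Klf2, a Krüppel-like zinc finger factor, was at 5.13 and 4.69 in haploid lines 1 and 2 and at 4.73 and 4.47 in diploid lines 1 and 2. Haploid line 2 lay just below diploid line 1, so the groups overlapped. The difference was 0.31 ± 0.22 (interval -0.22 to 0.84, limma adjusted p = 0.602), in the same brightest class. It was 0.09 without haploid line 1, 0.18 without diploid line 2 and 0.53 without haploid line 2, and 0.17, 0.17 and 0.18 with quantile normalization, cyclic loess and the value table.

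Klf4, the related factor that LIF induces through STAT3, was at 3.01 and 2.49 in haploid lines and 2.74 in both diploid lines. The haploid lines lay on either side of the diploid ones. The difference was 0.01 ± 0.22 (interval -0.52 to 0.54, limma adjusted p = 0.988), or -0.25 without haploid line 1 and 0.27 without haploid line 2. Tbx3, a T-box factor of the naive network, was at 3.16 and 2.64 in haploid lines and 2.92 and 3.14 in diploid lines. Haploid line 1 was its highest array and haploid line 2 its lowest. The difference was -0.13 ± 0.23 (interval -0.68 to 0.42, limma adjusted p = 0.843), or -0.39 without haploid line 1 and 0.13 without haploid line 2.

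Prdm14, the PR-domain repressor, was at 3.02 and 2.73 in haploid lines and 3.03 and 2.79 in diploid lines. Line 1 was the higher one in each group, and the groups overlapped. The difference was -0.04 ± 0.20 (interval -0.51 to 0.44, limma adjusted p = 0.952).

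The haploid lines stood furthest apart for Klf2, Klf4 and Tbx3. Haploid line 1 exceeded haploid line 2 by 0.44 for Klf2, 0.52 for Klf4 and 0.52 for Tbx3. Among probes of the same brightness class the median size of this line difference was 0.08 for Klf2 and 0.14 for Klf4 and Tbx3, and 3.4% of the probes in the class of Klf4 and Tbx3 had haploid lines over 0.5 apart. With 1 array per line this spread has no error of its own. Line 1 was the higher haploid line for 8 of the 10 genes, and 6 of the 10 had their highest value on that array. The diploid lines differed by at most 0.26, for Klf2, whose brightness class had a median of 0.32 for that difference.

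Setting each gene against Pou5f1 on the same array gives a quantity that does not move with the array's scaling. Nanog minus Pou5f1 was -6.47 and -6.28 on haploid and -5.98 and -6.09 on diploid arrays, Zfp42 minus Pou5f1 was -0.41 and -0.36 against -0.66 and -0.84, and Tfcp2l1 minus Pou5f1 was -0.81 and -0.93 against -1.10 and -1.23. These 3 kept haploid and diploid values apart, with Nanog lower in haploid cells by 0.34, and Zfp42 and Tfcp2l1 higher by 0.36 and 0.30. The share of all probes kept apart on this measure was not counted (without Pou5f1 it was 46.2%). Brightness still enters the measure: the median difference was -0.06 in the brightness class of Nanog and 0.08 in that of Pou5f1. Esrrb overlapped between groups on this measure (2.59 and 2.49 against 2.50 and 2.12). The values are a description, since an exact permutation test of 2 against 2 arrays cannot reach p = 0.05.

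Over 4 arrays many genes share a profile by number alone. For the 4 members whose arrays spanned over 0.5, the nearest centred profiles among 12369 other symbols well above background on all arrays lay within 0.06 log2 units (Euclidean distance). For Nanog these were H2-K2, Rogdi and Gnl3, for Klf2 Nfyc, Etv5 and Grrp1, for Klf4 Tmem104, Trim8 and Proc, and for Tbx3 Eps8, Ccdc120 and Cyth3. As many as 733 symbols lay within 0.2 of Nanog and 269 within 0.2 of Klf2, so little singles out the nearest.

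Of 32 further pluripotency and ESC marker genes, all above the filter, 0 were called higher and 0 lower (background 0.129% and 0.0321% of probes tested), with 12 above 0, 20 below and a median of -0.09. Both haploid values lay below both diploid ones for 10 and above them for 3, where 21.4% and 24.8% of all probes tested did so. Tdgf1, a coreceptor for Nodal, differed by -0.51 ± 0.19 (limma adjusted p = 0.380, values 1.67 and 1.85 against 2.15 and 2.40), with its other probes at -0.54 and -0.45. Nr0b1 (also called Dax1), a nuclear receptor of the ESC network, differed by -0.45 ± 0.18 (limma adjusted p = 0.428). Dppa5a, an RNA-binding protein of ESCs, differed by 0.35 ± 0.21 and Tcea3, an elongation factor, by 0.34 ± 0.19 (limma adjusted p = 0.545 and 0.539). Dppa5a was brighter than Esrrb, and the brightest class had a median difference of 0.21.

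The signals that feed the naive factors were measured too, and 0 genes of these lists were called in either direction. For LIF and STAT3, 9 of 10 genes passed the filter, 2 above and 7 below 0, with a median of -0.08. Socs3, a feedback inhibitor that STAT3 induces, was at 2.80 and 3.19 in haploid and 2.49 and 2.67 in diploid lines (difference 0.41 ± 0.21, limma adjusted p = 0.506), and Stat3 itself differed by 0.10 ± 0.17. Haploid line 2, the lower haploid line for Klf4, was the higher one for Socs3, and a link between these was not tested. Gab1, a signalling adaptor, and the kinase gene Jak1 differed by -0.40 ± 0.22 and -0.20 ± 0.17. For WNT and GSK3, 5 of 10 genes lay above 0 and 5 below, with a median of 0.02. Lef1, a DNA-binding partner of beta-catenin, had the lowest difference of these lists, with -3.80 and -3.57 in haploid and -2.10 and -2.58 in diploid lines (-1.35 ± 0.22, or 2.54-fold lower, limma adjusted p = 0.116). The Lef1 probe was dim on the haploid arrays, and how background correction moves its difference was not tested. Cdx1, a WNT target, differed by 0.65 ± 0.27, Sp5, another, by 0.36 ± 0.22, and the scaffold gene Axin1 by -0.50 ± 0.21.

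FGF and ERK signalling opposes the naive state. Of 12 genes past the filter 4 lay above 0 and 8 below (median -0.12), none called. Dusp6, a phosphatase that ERK induces and that acts back on it, was at 0.54 and 0.15 in haploid and 1.22 and 0.65 in diploid lines (difference -0.59 ± 0.26, limma adjusted p = 0.453), and the ERK kinase gene Map2k1 differed by -0.48 ± 0.21. Among genes listed as repressed by PRDM14, 5 of 7 lay above 0 and 2 below (median 0.14), none called. Dusp6 is on this list too and had its lowest difference (-0.59). Dnmt3b counted as above 0 by its brightest probe (0.20), while its other probes were at -0.19 and -0.05. Dnmt3l, a cofactor of the de novo methyltransferases, was at 4.42 and 4.24 in haploid and 3.99 and 3.84 in diploid lines (0.42 ± 0.18, limma adjusted p = 0.453). Of 13 primed epiblast genes past the filter, 5 lay above 0 and 8 below (median -0.14), none called, and Fgf5 and T did not pass the filter. Lef1 is on this list too, and Lhx2, a LIM homeobox factor, differed by -0.39 ± 0.17.

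**Figure D3:**
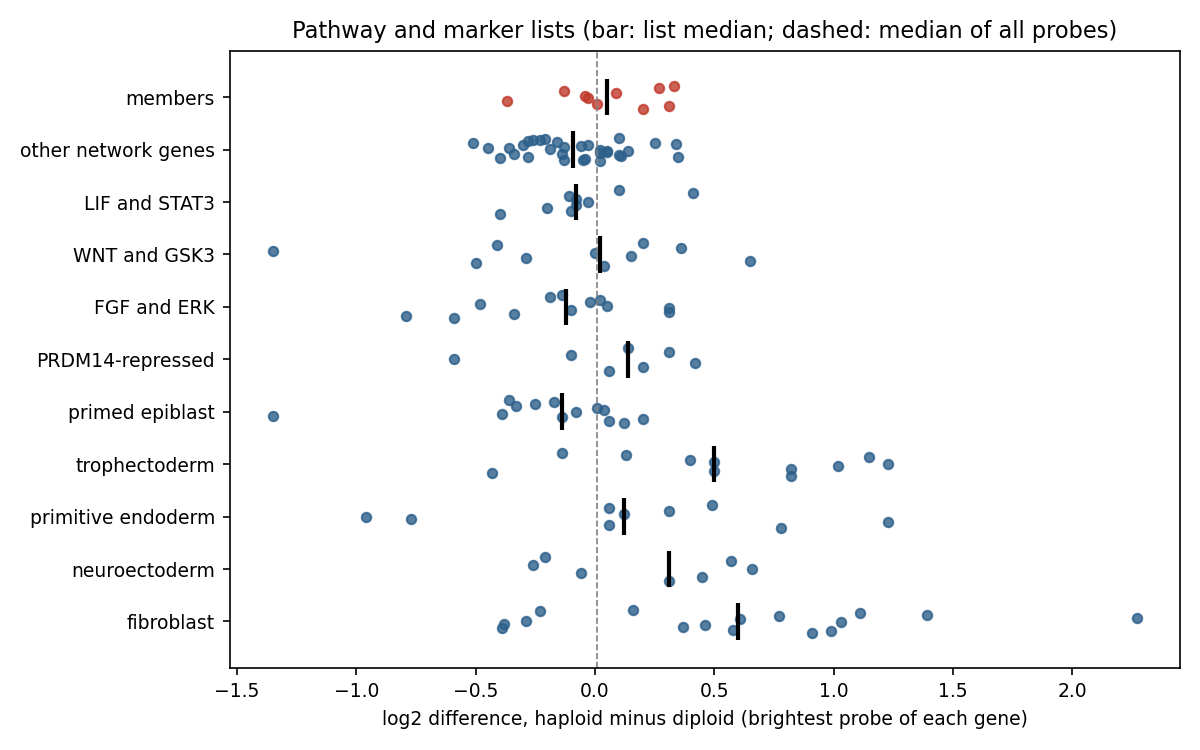
Log2 difference, haploid minus diploid, of the brightest probe of each gene, by list. The 10 members (red) span -0.37 to 0.33, while the fibroblast and trophectoderm lists have medians of 0.60 and 0.50 against 0.01 over all probes (dashed).

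The labelled cell type was checked against its markers. All 9 ESC markers (Pou5f1, Sox2, Nanog, Zfp42, Utf1, Tdgf1, Dppa5a, Cdh1 and Epcam) were detected well over background on each of the 4 arrays, with a summed level of 7.26 and 7.27 on haploid and 7.25 and 7.05 on diploid arrays. Only 3 of the 9 had the higher mean in haploid cells, and the median difference of the 9 was -0.13. The sum leans on Dppa5a, the brightest of the 9, which differed by 0.35. Markers of other cells were measured beside the members. Of 8 defining fibroblast markers 7 exceeded background clearly on each of the 4 arrays and Pdgfrb on only 1. Their summed level was 3.49 and 3.11 on haploid and 2.82 and 2.43 on diploid arrays, and 5 of 8 had the higher mean in haploid cells. The summed trophectoderm markers were at 2.85 and 2.81 on haploid and 1.75 and 1.79 on diploid arrays, set mainly by Krt18 (difference 1.23 ± 0.17, limma adjusted p = 0.0728). The defining trophectoderm factor Elf5 was not above background on any array, Cdx2 was on 1 (diploid line 2), and Eomes differed by -0.43 ± 0.18. Gata3, a further trophectoderm factor, was at -3.15 and -3.04 in haploid and -3.96 and -4.27 in diploid lines (1.02 ± 0.19, limma adjusted p = 0.140). Of the primitive endoderm factors Gata4 and Gata6 were well above background on 3 arrays and Sox17 and Sox7 on 1 each. Gata4 and Gata6 differed by -0.77 ± 0.28 and -0.96 ± 0.43, but both probes were dim and lowest on haploid line 1. Gata4 was at -5.14 and -4.45 in haploid and -4.24 and -3.81 in diploid lines. Gata6 was at -5.80 and -4.46 in haploid and -4.42 and -3.94 in diploid lines. The summed level of the 4 factors was -3.23 and -2.65 on haploid and -2.55 and -2.42 on diploid arrays. Of the neuroectoderm markers Sox1 and Olig2 were on all 4 and Pax6 on 1. Sox1 and Olig2 differed by -0.26 ± 0.21 and -0.06 ± 0.18, and the mean of each of the 3 was lower in haploid cells, with a median difference of -0.26. In the longer lists of these cell types 0 genes were called. Krt8, the partner keratin of Krt18, differed by 1.15 ± 0.23. Amn and Sparc of the endoderm list differed by 0.78 ± 0.25 and 0.49 ± 0.18, and Sparc lies in the brightest class (median 0.21). Tubb3, Nes and Zic1 of the neural list differed by 0.57 ± 0.19, 0.45 ± 0.19 and -0.21 ± 0.18. Of the fibroblast list, the calcium-binding protein gene S100a4 differed by 2.27 ± 0.50, Thbs1 (thrombospondin) by 1.39 ± 0.26 and Dcn (decorin) by -0.38 ± 0.20. The part of these other markers in the member differences was not tested.

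The arrays differed in overall brightness. The 75th percentile used for scaling stood at intensities of 526 and 553 for haploid lines and 617 and 907 for diploid lines, and 53.6% to 65.0% of probes were well above background. In the brightest class, which holds Esrrb and Klf2, diploid line 1 exceeded diploid line 2 by a median of 0.32 over all probes. No member probe had a saturated spot.

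**Figure D4:**
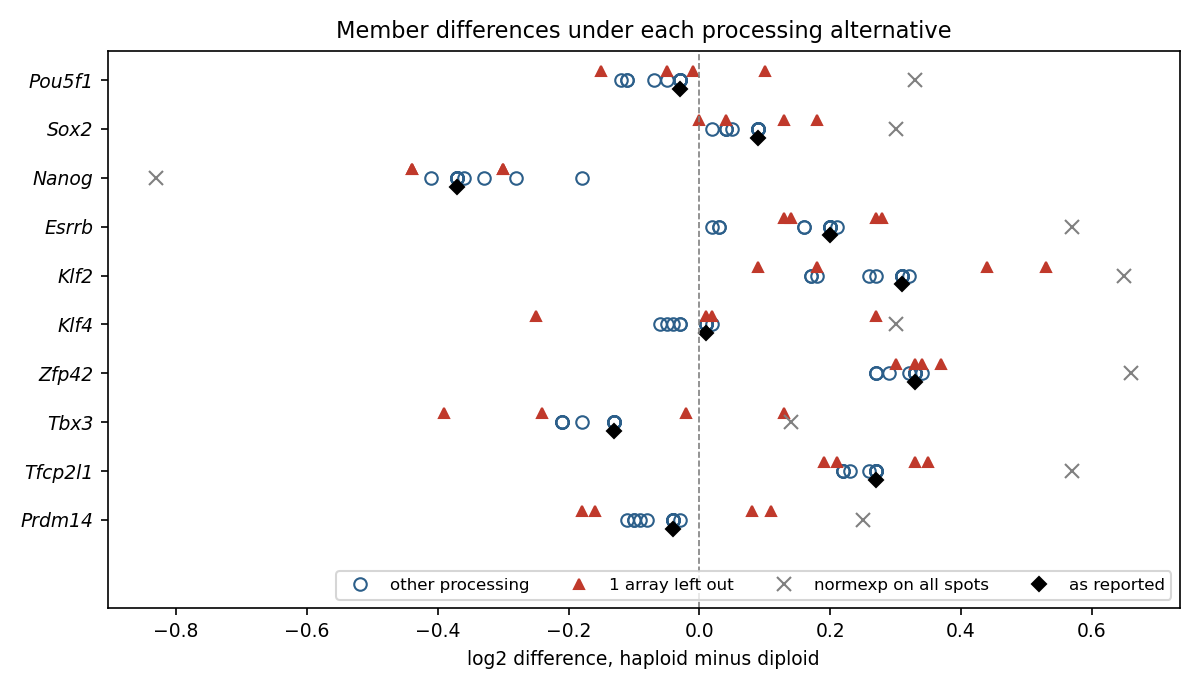
Log2 difference of each member under every processing tried, with the value as reported (diamonds), other processing (open circles), 1 array left out (triangles) and normexp on all spots (crosses). Nanog stayed below 0 in all, Zfp42, Tfcp2l1, Klf2 and Esrrb stayed above 0, and the other 5 lay on both sides or reached 0. Several alternatives repeat the reported value, because only the filter, the floor or the test changed.

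Across 17 alternatives, 0 of the 10 genes were called in any. Nanog kept its direction in all 17 (-0.83 to -0.18), as did Zfp42 (0.27 to 0.66), Tfcp2l1 (0.19 to 0.57), Klf2 (0.09 to 0.65) and Esrrb (0.02 to 0.57). Several of the 17 changed only the filter, the floor, the probes per gene, the replicate block or limma's model of the spread. Those left every member's difference as reported, so no direction could change there. Direction was tried only by the remaining alternatives, all on the same arrays. Pou5f1, Sox2, Klf4, Tbx3 and Prdm14 each changed sign or reached 0 in at least 1 of the 17.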

How the data were processed

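RNA of 4 samples was measured on 4 arrays. The scanner files hold, per the file headers, each spot's intensity from Agilent Feature Extraction 11.0.1.1, background-corrected within the array, plus flags (a 0 or 1 mark, unit other). The authors' deposited value table also holds linear intensity. Its scale is linear, its columns have medians of 28.3 to 28.4, and the sources used here do not say how the authors scaled them.

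Control spots and outlier spots (121 to 168 of 43020 per array) were left out, and log2 processed signal was set against each array's 75th percentile. Repeated spots of a probe were averaged. RefSeq symbols (GRCm38.p6 table) were found for 66.1% of 39409 probes, and the array design names mm9, so no coordinate of a probe is given. Probes well above background on both arrays of a group (21784) were fitted with limma 3.58.1 in R 4.3.3 (lmFit, eBayes, two-sided, Benjamini-Hochberg, threshold 0.05), each probe on its own. The fit was tested on simulated data. Where a gene had several probes, the brightest stood for it in lists.

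The members, lists and tests were chosen with earlier results of these data known, and the brightness classes, line differences and motif searches after the values were seen. Named genes were every member with every probe and, in each pathway list, up to 2 highest and 2 lowest genes well above background on all arrays whose groups did not overlap, besides cell type markers and nearest profiles. Lists for trophectoderm, primitive endoderm, neuroectoderm and fibroblasts had medians of 0.50, 0.12, 0.31 and 0.60, with 0 genes called. In normexp the median spot signal was used. The labels do not say that lines of 1 number share an origin. The correlation of line 1 minus line 2 between the groups, over probes, was 0.06, so no pairing was assumed. Each p-value rests on the spread among these 4 samples, that of the probe and that of all probes tested. This spread may be technical, and the number of arrays limits the precision.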

Additional observations from a re-analysis of the deposited data

How the results depend on the processing

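No member passed under any of the 17 alternatives. Over all probes, 35 passed as reported, and the count was 0 with normexp on all spots, cyclic loess, no filter and a common floor, 4 with the value table, 5 with quantile normalization, 22 with outlier spots kept, 23 with 1 probe per gene, 88 with probes well above background on all 4 arrays, 133 with normexp after dropping spots of high local background and 558 with a trended, robust prior. With the replicate number as a block 4 passed. Leaving out 1 array gave 0 to 362, with 0 without either diploid array, and a lone array was assumed to vary like the other group. The limma count at an unadjusted p under 0.05 was 2483 as reported. The median of the member probes was 0.33 with normexp on all spots, where the median over all probes tested was -0.15, and 0 to 0.27 with 1 array left out.

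Members that changed sign or reached 0 were small as reported (-0.13 for Tbx3 to 0.09 for Sox2), and some alternatives moved them further. With normexp on all spots Pou5f1 was 0.33, Tbx3 0.14 and Prdm14 0.25. Klf4 was -0.06 with quantile normalization, -0.05 with cyclic loess, -0.04 with the value table, and -0.03 both with normexp after that drop and with the percentile over bright probes. With 1 array left out Pou5f1 ran from -0.15 to 0.10, Sox2 from 0 to 0.18, Klf4 from -0.25 to 0.27, Tbx3 from -0.39 to 0.13 and Prdm14 from -0.18 to 0.11. The cause was not tested.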
